A study of Mus musculus with 12 samples.

Results

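Genes of 5 enzyme families that oxidise, hydrolyse and conjugate foreign compounds were read out across RNA sequencing libraries of the mouse terminal ileum, the last stretch of the small intestine. The families are the cytochrome P450 families Cyp1 to Cyp4, the glutathione S-transferases (Gst), the UDP-glucuronosyltransferases (Ugt), the sulfotransferases (Sult) and the carboxylesterases (Ces). Members were taken by gene symbol alone, which gave 159 of the 23284 genes in the deposited count table. Of these, 138 had at least 1 read in the 12 libraries and 21 had none. After a filter on low counts, 96 members remained among 15866 genes tested. Each of the 42 members with reads that did not pass held at most 78 reads over the 12 libraries. A member that passed only through the group where it was high had to differ, so the counts below describe the members that passed and not the families as a whole.

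Each library came from 1 mouse, in 4 groups of 3. The groups were Rag1-/- mice, Tcra-/- mice caged together with wild type animals over 4 to 8 weeks (co-housed), Tcra-/- mice kept apart (separately housed), and wild type C57BL/6 mice (WT). Rag1-/- mice lack mature B and T cells, whereas Tcra-/- mice, without the alpha chain of the T cell receptor, lack alpha-beta T cells. Per the labels, all mice came from Taconic, were kept under specific pathogen free conditions, and the wild type cage mates of the co-housed mice were age matched males. The labels state neither ages nor the sex of the other mice. Cages are not stated either, and mice of 1 cage are not independent replicates of housing, so tests measure the spread among mice. The study's stated comparisons were Rag1-/- against WT mice and co-housed against separately housed Tcra-/- mice. Both comparisons of Tcra-/- mice with WT mice are implied by the groups.

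Library totals ran from 37061276 to 50581616 counts. Rag1 itself had 75, 69 and 92 reads in the mice labelled Rag1-/- and no read in the other 9 mice. The table does not show which part of the gene the reads cover, so they do not check the label. All 6 B cell markers and 5 of 5 tested T cell markers were called lower in the mice labelled Rag1-/- than in WT mice.

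Intestinal absorptive cells meet drugs, plant compounds and bacterial products before the liver does. Cytochrome P450 enzymes add oxygen to such compounds with electrons from a reductase, carboxylesterases cleave esters, and the transferases attach glucuronic acid, sulfate or glutathione, after which transporters export the products. Many of these enzymes also act on the body's own fatty acids, steroids, bile pigments and hormones, and many of their genes are targets of ligand-activated receptors such as the aryl hydrocarbon receptor, the pregnane X receptor and the constitutive androstane receptor.

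Upstream sequences are shown for the 4 members with the strongest joint evidence in the stated comparisons, that is the smallest sum of p-value ranks among members called in both. All 4 were lower in Rag1-/- than in WT mice and lower in co-housed than in separately housed Tcra-/- mice. Each run is the 250 bases before the annotated start, 5′ to 3′ on the gene's strand, from RefSeq on GRCm38.p6, and capitals mark a match to 1 of 4 motifs.
Cyp4f16, chr17:32536307-32536556, plus strand: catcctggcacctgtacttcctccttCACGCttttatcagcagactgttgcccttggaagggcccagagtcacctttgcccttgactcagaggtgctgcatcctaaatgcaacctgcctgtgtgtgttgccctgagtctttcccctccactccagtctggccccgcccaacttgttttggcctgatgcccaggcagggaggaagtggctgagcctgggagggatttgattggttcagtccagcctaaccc
Ugt2b36, chr5:87092556-87092805, minus strand: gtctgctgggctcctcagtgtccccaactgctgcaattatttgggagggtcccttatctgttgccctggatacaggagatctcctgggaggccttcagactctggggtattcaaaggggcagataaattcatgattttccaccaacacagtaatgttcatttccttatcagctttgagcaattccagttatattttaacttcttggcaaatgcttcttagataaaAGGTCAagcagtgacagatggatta
Ugt1a1, chr1:88211709-88211958, plus strand: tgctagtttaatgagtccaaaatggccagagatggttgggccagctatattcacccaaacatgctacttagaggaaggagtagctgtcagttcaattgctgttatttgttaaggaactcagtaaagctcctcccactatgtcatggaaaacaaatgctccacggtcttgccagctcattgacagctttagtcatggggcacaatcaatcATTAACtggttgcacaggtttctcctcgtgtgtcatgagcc
Ugt2b5, chr5:87140341-87140590, minus strand: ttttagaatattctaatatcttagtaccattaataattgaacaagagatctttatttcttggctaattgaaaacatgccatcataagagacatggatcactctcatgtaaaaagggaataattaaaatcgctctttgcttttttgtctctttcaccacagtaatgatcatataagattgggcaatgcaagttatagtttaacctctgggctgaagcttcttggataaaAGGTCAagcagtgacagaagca
The motifs were searched on both strands and did not overlap in these runs. They were GCGTG (the core bound by the aryl hydrocarbon receptor), TGACNNNGC (the antioxidant element core), AGGTCA (a nuclear receptor half-site) and GTTAAT (an HNF1 half-site). GCGTG lies on the reverse strand of Cyp4f16 at -224 to -220 from the start and was present in 28.2% of 32851 promoter windows of that length in the table. AGGTCA lies at -25 to -20 of Ugt2b36 and -22 to -17 of Ugt2b5, inside a run of 24 bases (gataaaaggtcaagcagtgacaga) that both genes share, and was present in 14% of all windows. GTTAAT lies on the reverse strand of Ugt1a1 at -41 to -36 and was present in 6.43% of all windows. TGACNNNGC matched none of the 4 and 10.2% of all windows. Promoters were matched by symbol for 79 of the 96 tested members, in 95 windows. Among those windows the shares were 22.1% for GCGTG, 5.26% for TGACNNNGC, 15.8% for AGGTCA and 12.6% for GTTAAT. A match is a string of letters in a window, and no binding was measured here.

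Summed over all families, transcript levels were lower in Rag1-/- and co-housed Tcra-/- mice and highest in separately housed Tcra-/- mice. Levels are in CPM, that is counts per 1000000 counts of the normalized library size. The 8 Ugt1a genes are counted once because they share most of their reads. The sums take Ugt1a7c, which had the most reads of the 8, and the counts of calls below take Ugt1a1. All members together took 5589 ± 497 CPM in Rag1-/- mice, 4966 ± 489 CPM in co-housed Tcra-/- mice, 9337 ± 460.1 CPM in separately housed Tcra-/- mice and 7572 ± 584 CPM in WT mice (mean ± SD, n = 3 each). The ratio was 0.738 for Rag1-/- over WT mice and 0.532 for co-housed over separately housed Tcra-/- mice. In bulk tissue, fewer cells of a type and less RNA per cell cannot be told apart. The Cyp4 family held 25.2% of the sum over the 12 mice, Ces 24.7%, Cyp3 13.4%, Ugt 11.4%, Sult 10.1%, Gst 7.81%, Cyp2 7.23% and Cyp1 0.173%. The Cyp2 sum differed most by housing, with 258 ± 31.8 CPM in co-housed and 944 ± 62.6 CPM in separately housed Tcra-/- mice, a ratio of 0.273. The Gst sum differed least, with 481 ± 31.0 CPM in co-housed and 633 ± 1.25 CPM in separately housed Tcra-/- mice, a ratio of 0.760. For Gst the ratio of Rag1-/- over WT mice was 1.04, and the values of these groups overlapped. For the other 7 families the Rag1-/- mice lay below the WT mice without overlap, except for Ces, where the highest Rag1-/- mouse lay above the lowest WT mouse. Such sums are dominated by a few abundant genes, so single genes were tested below.

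**Figure D1:**
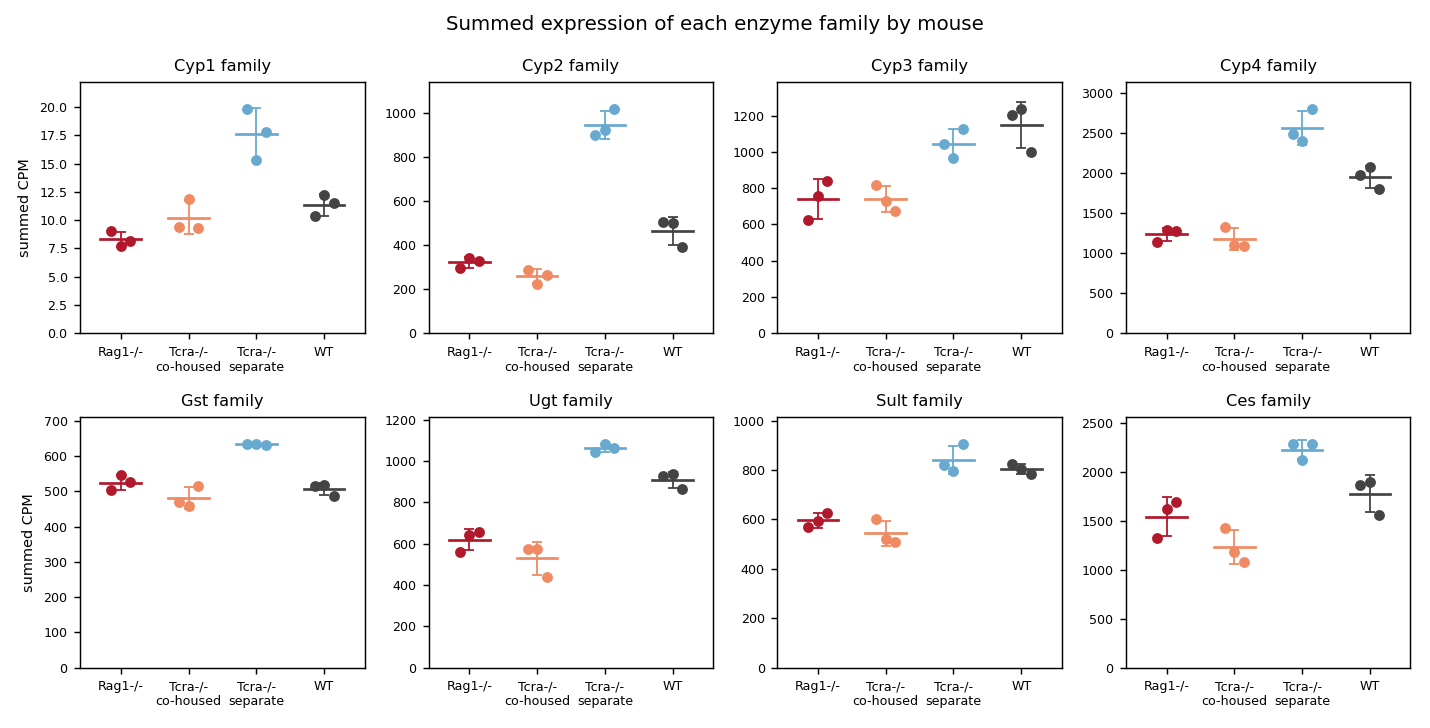
Summed CPM of each enzyme family (vertical axis, from 0) in single mice of the 4 groups, with the group mean (line) and SD (bar). In each panel the co-housed Tcra-/- mice lie below the separately housed Tcra-/- mice, and the Rag1-/- mice lie below the WT mice in 6 of the 8 families, with overlap in Gst and Ces.

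In the stated comparisons, most of the members called were lower. Below, a gene called lower by housing was lower in co-housed than in separately housed Tcra-/- mice. Genes were called at an adjusted p (Benjamini-Hochberg) below 0.01 over all 15866 genes in edgeR's two-sided quasi-likelihood test, from which every adjusted p and standard error (SE) here comes unless DESeq2 is named. With the Ugt1a genes counted once (89 units), 38 members were called in Rag1-/- against WT mice, 6 higher and 32 lower. Over all genes tested 20.9% were called, 9.42% higher and 11.5% lower, against 36.0% of the members lower. The median log2 fold change was -0.54 over the members and -0.02 over all genes. In co-housed against separately housed Tcra-/- mice, 66 of the 89 were called, 5 higher and 61 lower. There 38.8% of all genes were called, 21.1% higher and 17.7% lower, against 68.5% of the members lower. Counts by family and by list below are to be read beside these shares of all genes. The median log2 fold change was -1.13 over the members and -0.01 over all genes. Scaling by library size alone, without the trimmed-mean factors, moved the median of all genes to -0.19 in Rag1-/- against WT mice and to -0.12 by housing. It gave 713 higher and 3218 lower calls over all genes in Rag1-/- against WT mice (1494 and 1820 with the factors), 2480 and 3695 by housing (3347 and 2809), and 795 and 2449 in co-housed against WT mice (1482 and 1458). Member calls under that scaling were 3 higher and 51 lower of 96 in Rag1-/- against WT mice (6 and 39 with the factors), and 5 and 72 by housing (5 and 68).

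**Figure D2:**
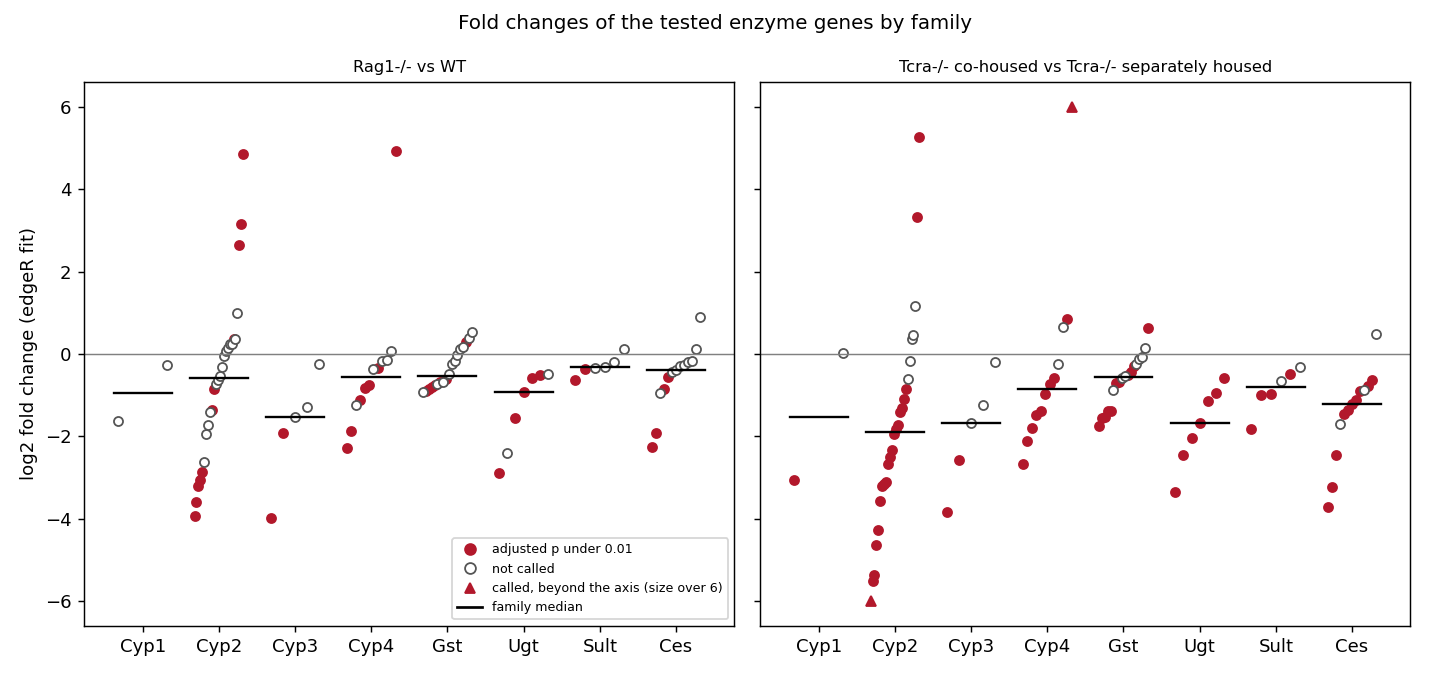
Log2 fold changes (vertical axis, edgeR fit) of the tested members by family, in Rag1-/- against WT mice (left) and in co-housed against separately housed Tcra-/- mice (right). Filled points were called, open points were not, triangles lie beyond a size of 6 on the log2 scale, black lines are family medians, and Ugt1a1 stands for the 8 Ugt1a genes.

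Of the 89 units, 30 were lower in both stated comparisons, 3 were higher in both (Cyp2d9, Cyp2d12 and Cyp4a29-ps) and 3 were called in opposite directions (Cyp2j6, Gsto1 and Cyp4f18). Cyp2d12 and Cyp4a29-ps passed the filter only through Rag1-/- and co-housed mice, and Cyp2d9 only through Rag1-/- mice, where they were high. Their higher calls were thus favoured by the filter and are no support for a rise of these enzymes. Among the 30 lower in both, Cyp2c67 passed only through WT mice, where it was high. Its lower call in Rag1-/- against WT mice was favoured in the same way. Over all genes, 6.11% were lower in both, 7.37% higher in both and 2.29% opposite. A further 30 members were called by housing alone, 2 in Rag1-/- against WT mice alone (Cyp2d34 and Ces1b), and 21 in neither. The size of the log2 fold change was larger for housing in 71 of the 89. Separately housed Tcra-/- mice had the highest group mean for 63 of 89 members (70.8%), against 38.3% of all genes tested. Co-housed Tcra-/- mice had the lowest mean for 48 members (53.9%), against 26.1% of all genes, and Rag1-/- mice for 25 (28.1%), against 24.9% of all genes.

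The Cyp1 family was small, and Cyp1a1 was lower with co-housing. Cyp1a1 oxidises aromatic hydrocarbons and is the classic target of the aryl hydrocarbon receptor. Positions below are in the files' build, mm9. Cyp1a1 (chr9:57535735-57551631, plus strand) had 0.735, 0.332 and 0.960 CPM in Rag1-/- mice, 1.69, 0.823 and 0.594 CPM in co-housed, 8.58, 6.85 and 10.2 CPM in separately housed and 2.23, 2.88 and 1.25 CPM in WT mice. The separately housed mice lay above all other mice. Co-housed mice were lower than separately housed mice (log2 fold change of -3.07 with an SE of 0.40, adjusted p = 2.92e-05), and separately housed mice were higher than WT mice (log2 fold change of 2.01 with an SE of 0.36, adjusted p = 0.00147). In Rag1-/- against WT mice it was not called (log2 fold change of -1.63 with an SE of 0.43, adjusted p = 0.0102), though all 3 Rag1-/- mice lay below all WT mice. It was called there with library size alone (adjusted p = 0.00393), with the filter on CPM (adjusted p = 0.00910), with the 6 libraries of these groups alone (adjusted p = 0.00864), without WTB6x3167 (adjusted p = 0.00328) and with DESeq2 (adjusted p = 0.000123). Cyp1b1 (chr17:80106293-80114381, minus strand), which oxidises aromatic compounds and estrogens, had 8.30, 7.39 and 7.15 CPM in Rag1-/- mice, 7.71, 11.1 and 8.72 CPM in co-housed, 11.2, 8.43 and 7.57 CPM in separately housed and 8.10, 9.31 and 10.3 CPM in WT mice. Its groups overlapped and it was called in neither stated comparison (log2 fold change of -0.28 with an SE of 0.16, adjusted p = 0.220 in Rag1-/- against WT mice, log2 fold change of 0.02 with an SE of 0.16, adjusted p = 0.943 by housing). Cyp1a2, the other Cyp1 gene, had 1 read in all libraries.

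Of 51 Cyp2 genes, 26 were tested. In Rag1-/- against WT mice 4 were higher and 7 lower, and by housing 2 were higher and 19 lower, with median log2 fold changes of -0.58 and -1.88. Cyp2d40 and Cyp2f2 passed the filter only through separately housed mice, and Cyp2c67 only through WT mice, where they were high. The lower calls of Cyp2d40 and Cyp2f2 by housing add no support to these counts. Nor does that of Cyp2c67 in Rag1-/- against WT mice. The Cyp2c enzymes, which oxidise drugs and turn arachidonic acid into epoxides and hydroxy acids, were all lower in co-housed than in separately housed Tcra-/- mice, 7 of 7 tested, although the Cyp2c67 call was lost without TCRaCox3156, TCRaCox3157 or TCRaSepxT3 (adjusted p up to 0.0200). Cyp2c29 passed the filter only through separately housed mice, where it was high, so its lower call adds no support to that count. Cyp2c68 (chr19:39763326-39815591, minus strand) had 5.51, 9.86 and 7.92 CPM in Rag1-/- mice, 7.71, 6.04 and 4.04 CPM in co-housed, 33.3, 31.8 and 35.4 CPM in separately housed and 7.99, 8.73 and 7.36 CPM in WT mice. The separately housed mice stood apart, while Rag1-/- and WT mice overlapped. Its housing difference was called (log2 fold change of -2.50 with an SE of 0.22, adjusted p = 7.05e-07) and its difference between Rag1-/- and WT mice was not (log2 fold change of -0.05 with an SE of 0.21, adjusted p = 0.895). Cyp2c44, also on chromosome 19, had 0, 0.284 and 0.555 CPM in Rag1-/- mice, 0.428, 0.549 and 0.347 CPM in co-housed, 2.11, 2.07 and 2.58 CPM in separately housed and 4.12, 4.44 and 4.74 CPM in WT mice. Here the WT mice were highest. It was lower in Rag1-/- than in WT mice (log2 fold change of -3.93 with an SE of 0.48, adjusted p = 2.46e-05) and lower in co-housed than in separately housed mice (log2 fold change of -2.34 with an SE of 0.46, adjusted p = 0.000754). Cyp2c66 had a log2 fold change of -3.21 in Rag1-/- against WT mice and -5.51 by housing, both called, at levels of at most 5.77 CPM. Cyp2c55 and Cyp2c65 were lower with co-housing (log2 fold changes of -3.58 and -1.83) and were not called in Rag1-/- against WT mice. Cyp2c29 had 0 reads in Rag1-/- mice, 0 in co-housed, 143 in separately housed and 2 in WT mice. Against a floor of 3 counts over the group, which covers counting error only, it was at least 42.3-fold lower in co-housed than in separately housed mice.

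Of the Cyp2d genes on chromosome 15, Cyp2d26 and Cyp2d22 were lower in both stated comparisons. The higher calls were those of genes at low levels, and the calls of Cyp2d9 and Cyp2d12 were favoured by the filter, as stated above. Cyp2d26 (chr15:82620537-82624675, minus strand) had 8.72, 14.7 and 12.4 CPM in Rag1-/- mice, 15.5, 5.28 and 6.68 CPM in co-housed, 206, 210.0 and 260.2 CPM in separately housed and 110.1, 109.8 and 80.1 CPM in WT mice. Rag1-/- and co-housed mice lay far below the others and did not overlap them. Expression was lower in Rag1-/- than in WT mice (log2 fold change of -3.06 with an SE of 0.38, adjusted p = 0.000340). By housing it was lower in co-housed mice (log2 fold change of -4.64 with an SE of 0.41, adjusted p = 1.84e-05). Cyp2d22 (chr15:82200957-82210690, minus strand) had 10.6, 13.1 and 14.2 CPM in Rag1-/- mice, 11.7, 9.05 and 12.03 CPM in co-housed, 35.3, 31.8 and 40.4 CPM in separately housed and 23.3, 25.2 and 20.2 CPM in WT mice. The gene was lower in Rag1-/- than in WT mice (log2 fold change of -0.86 with an SE of 0.13, adjusted p = 0.000142) and lower in co-housed than in separately housed mice (log2 fold change of -1.72 with an SE of 0.14, adjusted p = 7.42e-08), with no overlap in either pair. Cyp2d12 went the other way at a low level, with 0.931, 1.02 and 1.32 CPM in Rag1-/- mice, 0.743, 0.617 and 0.966 CPM in co-housed, 0.0658, 0.140 and 0.0219 CPM in separately housed and 0.112, 0.136 and 0.112 CPM in WT mice. It was higher in Rag1-/- than in WT mice (log2 fold change of 3.16 with an SE of 0.42, adjusted p = 2.78e-05) and higher in co-housed than in separately housed mice (log2 fold change of 3.32 with an SE of 0.47, adjusted p = 2.22e-05). Cyp2d9 was also higher in Rag1-/- than in WT mice, with 94 reads over the Rag1-/- group and 3 over the WT group, and at least 4.88-fold higher in co-housed than in separately housed mice, with 13 reads and none. Its housing call was lost without any 1 of the 6 mice (adjusted p up to 0.0230). Cyp2d34 was higher in Rag1-/- than in WT mice (log2 fold change of 2.66 with an SE of 0.69, adjusted p = 0.00921), a call lost with library size alone, with no filter on low counts and without any 1 mouse but WTB6x3167 (adjusted p up to 0.0461). Between near-identical Cyp2d genes reads could be assigned to either gene, since the labels do not state how multi-mapped reads were treated.

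Cyp2j6, the Cyp2 gene with the most reads and 1 of a subfamily that epoxidises polyunsaturated fatty acids, was called in opposite directions. It had 158, 162 and 161 CPM in Rag1-/- mice, 133, 125 and 137 CPM in co-housed, 255, 287 and 299 CPM in separately housed and 137, 112 and 126 CPM in WT mice. Separately housed mice were highest and Rag1-/- mice were next, above co-housed and WT mice. It was lower in co-housed than in separately housed mice (log2 fold change of -1.09 with an SE of 0.08, adjusted p = 2.63e-08) and slightly higher in Rag1-/- than in WT mice (log2 fold change of 0.36 with an SE of 0.08, adjusted p = 0.00253). The second value was 0.19 with library size alone (adjusted p = 0.0658), and the call was lost without RAG1x3164 (adjusted p = 0.0111) and without WTB6x3160 (adjusted p = 0.0160). Cyp2j9 and Cyp2j13 were lower by housing (log2 fold changes of -1.42 and -1.94) and were not called in Rag1-/- against WT mice. Cyp2b10, a classic target of the constitutive androstane receptor, had 4.14, 9.20 and 5.91 CPM in Rag1-/- mice, 8.51, 3.06 and 3.39 CPM in co-housed, 41.2, 38.3 and 55.7 CPM in separately housed and 49.7, 62.9 and 26.9 CPM in WT mice. Its level was lower in Rag1-/- than in WT mice (log2 fold change of -2.86 with an SE of 0.48, adjusted p = 0.00211) and lower in co-housed than in separately housed mice (log2 fold change of -3.20 with an SE of 0.50, adjusted p = 0.000680), and the first call was lost without RAG1x3163 or RAG1x3168 and with the 6 libraries of these groups alone (adjusted p up to 0.0117). Cyp2u1, a fatty acid hydroxylase, was lower in both (log2 fold change of -1.36 in Rag1-/- against WT mice and of -2.67 by housing). Cyp2e1, which oxidises ethanol, was lower with co-housing (log2 fold change of -1.32 with an SE of 0.34, adjusted p = 0.00456), a call lost without TCRaCox3155, TCRaCox3156, TCRaSepxT2 or TCRaSepxT4 (adjusted p up to 0.0236). Cyp2r1, a vitamin D hydroxylase, was called in neither stated comparison.

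All 9 Cyp3 genes are Cyp3a genes on chromosome 5, and 5 were tested, of which 2 were lower in each stated comparison and none was higher. Cyp3a11, a main drug-oxidising enzyme of mouse liver and intestine and a target of the pregnane X receptor, had 6.91, 21.7 and 13.3 CPM in Rag1-/- mice, 20.7, 4.62 and 5.37 CPM in co-housed, 143, 132 and 158 CPM in separately housed and 269, 253 and 142 CPM in WT mice. Rag1-/- and co-housed mice lay below every other mouse, and TCRaCox3155 lay near the highest Rag1-/- mouse. Its transcripts were lower in Rag1-/- than in WT mice (log2 fold change of -3.99 with an SE of 0.64, adjusted p = 0.00171) and lower in co-housed than in separately housed mice (log2 fold change of -3.84 with an SE of 0.65, adjusted p = 0.00116). The housing call was lost when only the 6 Tcra-/- libraries were fitted (adjusted p = 0.0128). Cyp3a25 had 15.9, 29.4 and 34.1 CPM in Rag1-/- mice, 24.6, 10.7 and 7.63 CPM in co-housed, 92.3, 67.9 and 92.0 CPM in separately housed and 106, 114 and 80.0 CPM in WT mice. This gene was lower in Rag1-/- than in WT mice (log2 fold change of -1.91 with an SE of 0.44, adjusted p = 0.00996), close to the threshold and lost without any 1 of the 6 mice (adjusted p up to 0.0341). That call was also lost with median-ratio factors, with no filter on low counts and with the 6 libraries of these groups alone (adjusted p up to 0.0127). By housing Cyp3a25 was lower in co-housed mice (log2 fold change of -2.56 with an SE of 0.45, adjusted p = 0.00146), a call lost with the 6 Tcra-/- libraries alone (adjusted p = 0.0155). Cyp3a13, the most abundant of the family per kilobase, had 599.8, 705 and 791 CPM in Rag1-/- mice, 771, 715 and 659 CPM in co-housed, 806, 764 and 875 CPM in separately housed and 828, 867 and 778 CPM in WT mice. Its groups overlapped and it was called in neither stated comparison (log2 fold change of -0.24 with an SE of 0.10, adjusted p = 0.0706 in Rag1-/- against WT mice, log2 fold change of -0.19 with an SE of 0.10, adjusted p = 0.112 by housing). With library size alone it was called lower in both, with log2 fold changes of -0.41 in Rag1-/- against WT mice (adjusted p = 0.00161) and -0.30 by housing (adjusted p = 0.00905). Cyp3a44 (log2 fold change -1.52 in Rag1-/- against WT mice and -1.68 by housing) and Cyp3a59 (-1.28 and -1.23) stayed below 4 CPM, and neither was called although the mice of each pair of groups did not overlap. Cyp3a41a and Cyp3a41b have identical counts and were not tested.

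**Figure D3:**
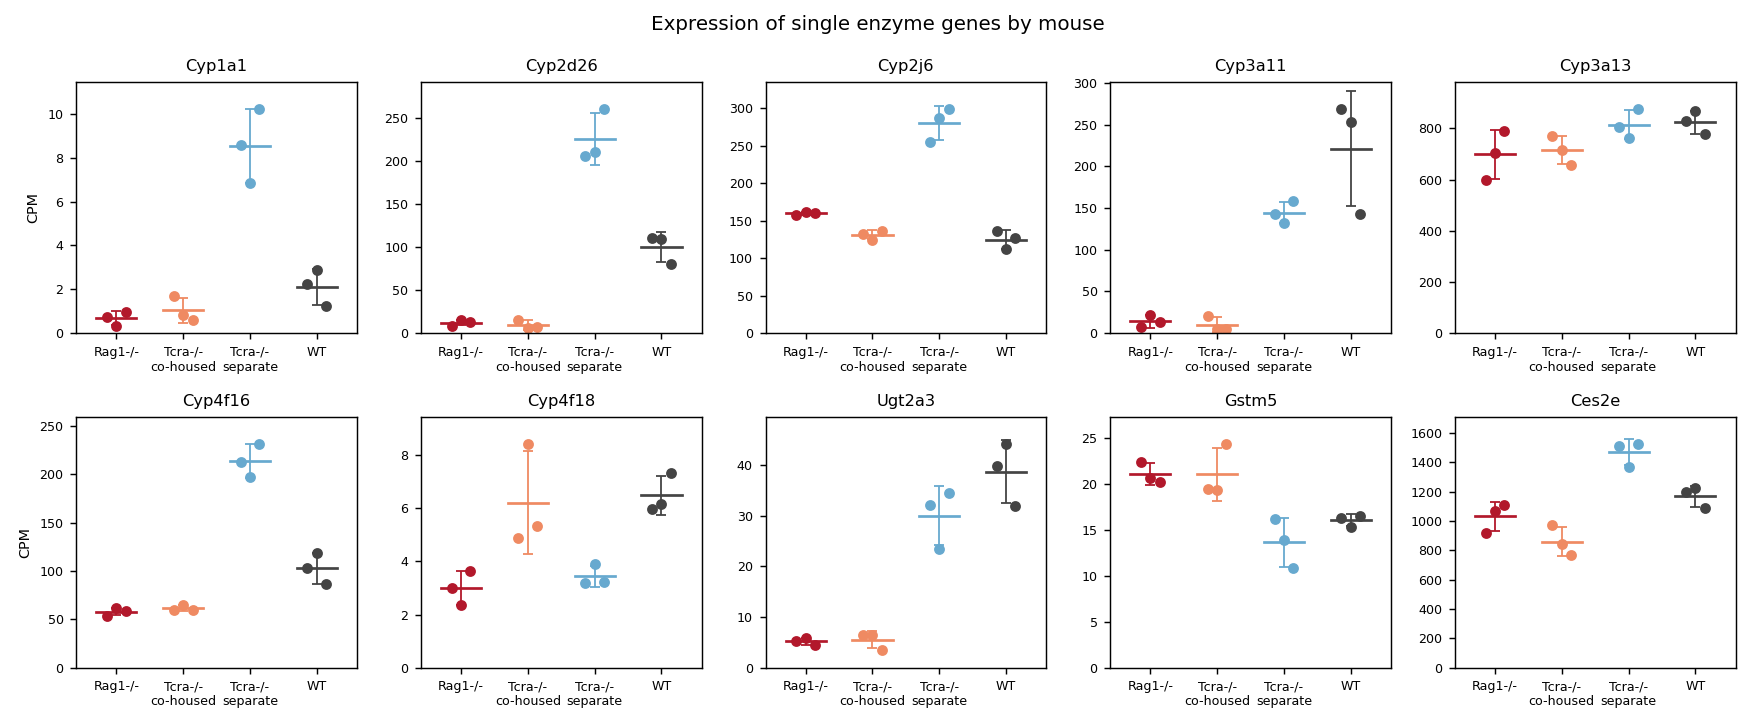
CPM (vertical axis, from 0) of 10 single genes in each mouse, with group mean (line) and SD (bar). Cyp2d26, Cyp3a11 and Ugt2a3 are low in both Rag1-/- and co-housed Tcra-/- mice, Cyp3a13 overlaps between the groups of each stated comparison, and Gstm5 is highest in these 2 groups.

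The Cyp4 enzymes hydroxylate the end of fatty acid and eicosanoid chains. Of 12 tested Cyp4 genes, 1 was higher and 6 lower in Rag1-/- against WT mice, and 2 were higher and 8 lower by housing. Cyp4f16 (chr17:32673574-32688742, plus strand) had the smallest housing p of the family, with 53.8, 61.5 and 59.0 CPM in Rag1-/- mice, 59.3, 65.2 and 60.2 CPM in co-housed, 213, 197 and 232 CPM in separately housed and 103, 118 and 86.4 CPM in WT mice. Separately housed mice were highest, and Rag1-/- and co-housed mice lay below all others. Its expression was lower in Rag1-/- than in WT mice (log2 fold change of -0.82 with an SE of 0.10, adjusted p = 1.17e-05) and lower in co-housed than in separately housed mice (log2 fold change of -1.80 with an SE of 0.10, adjusted p = 2.53e-09). Its neighbour Cyp4f13 had 24.8, 28.2 and 33.3 CPM in Rag1-/- mice, 31.9, 30.4 and 29.5 CPM in co-housed, 60.3, 54.3 and 65.6 CPM in separately housed and 45.8, 53.1 and 46.2 CPM in WT mice. Its levels were lower in Rag1-/- than in WT mice (log2 fold change of -0.75 with an SE of 0.10, adjusted p = 3.74e-05) and by housing (log2 fold change of -0.97 with an SE of 0.10, adjusted p = 1.22e-06). Cyp4f14, with 452 CPM per kilobase the member with the highest level per length, had 858, 939 and 948 CPM in Rag1-/- mice, 963, 801 and 797 CPM in co-housed, 1396, 1325 and 1553 CPM in separately housed and 1179.8, 1178 and 1099.6 CPM in WT mice. The groups did not overlap in either comparison. It was lower by housing (log2 fold change of -0.74 with an SE of 0.09, adjusted p = 4.16e-06) and in Rag1-/- than in WT mice (log2 fold change of -0.33 with an SE of 0.09, adjusted p = 0.00802). The second call was lost with median-ratio factors and without any 1 of the 6 mice (adjusted p up to 0.0448), and its value was -0.50 with library size alone.

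Cyp4v3 (chr8:46391156-46418550, minus strand), a fatty acid hydroxylase, had 80.3, 117 and 109 CPM in Rag1-/- mice, 138, 85.7 and 72.0 CPM in co-housed, 599, 592 and 681 CPM in separately housed and 497, 567 and 419 CPM in WT mice. The highest Rag1-/- or co-housed mouse lay far below the lowest of the other mice. It was lower in Rag1-/- than in WT mice (log2 fold change of -2.27 with an SE of 0.24, adjusted p = 6.67e-05) and lower in co-housed than in separately housed mice (log2 fold change of -2.66 with an SE of 0.25, adjusted p = 1.16e-05). Cyp4f18, also on chromosome 8, which hydroxylates leukotriene B4 in mouse neutrophils, was called in opposite directions. It had 2.99, 2.37 and 3.65 CPM in Rag1-/- mice, 4.88, 8.41 and 5.32 CPM in co-housed, 3.18, 3.89 and 3.24 CPM in separately housed and 5.98, 6.14 and 7.33 CPM in WT mice. Expression was lower in Rag1-/- than in WT mice (log2 fold change of -1.11 with an SE of 0.21, adjusted p = 0.000724) and higher in co-housed than in separately housed mice (log2 fold change of 0.86 with an SE of 0.21, adjusted p = 0.00266). The housing call was lost without TCRaCox3156, TCRaSepxT2 or TCRaSepxT4 (adjusted p up to 0.0215). Summed levels of the 6 B cell markers ran in the same order of group means, with 1.56 to 2.40 CPM in Rag1-/-, 96.5 to 144 CPM in co-housed, 42.7 to 77.7 CPM in separately housed and 139 to 171 CPM in WT mice. The summed T cell markers, given below, ran in that order too. Cyp4f18 overlapped between Rag1-/- and separately housed mice, whereas the B cell sums did not. The part of these markers in the Cyp4f18 result was not tested. The pseudogene Cyp4a29-ps had 2.65, 3.93 and 1.88 CPM in Rag1-/- mice, 3.06, 0.617 and 3.17 CPM in co-housed, 0, 0 and 0 CPM in separately housed and 0.0675, 0.0906 and 0.112 CPM in WT mice. It was higher in Rag1-/- than in WT mice (log2 fold change of 4.92 with an SE of 0.71, adjusted p = 0.000342) and, with 262 reads and none, at least 98.4-fold higher in co-housed than in separately housed mice. Both of these calls were favoured by the filter, as stated above. Cyp4b1 was lower by housing (log2 fold change of -1.39 with an SE of 0.18, adjusted p = 4.63e-05) and was not called in Rag1-/- against WT mice. Cyp4f39 was called lower in both, and both calls were lost without single mice. In Rag1-/- against WT mice the call was lost without any 1 of the 6 mice (adjusted p up to 0.0388). The housing call was lost without TCRaCox3156, TCRaCox3157 or TCRaSepxT4, with no filter on low counts and with the 6 Tcra-/- libraries alone (adjusted p up to 0.0733).

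The carboxylesterases lie in the Ces1 and Ces2 clusters of chromosome 8. None of 13 tested was higher in either stated comparison, while 4 were lower in Rag1-/- against WT mice and 10 by housing. Ces2e, an abundant intestinal esterase with 419.8 CPM per kilobase, had 920.4, 1065 and 1109 CPM in Rag1-/- mice, 970.2, 841 and 771 CPM in co-housed, 1515, 1368 and 1525 CPM in separately housed and 1195, 1227 and 1090.1 CPM in WT mice. Ces2e was lower in co-housed than in separately housed mice (log2 fold change of -0.77 with an SE of 0.10, adjusted p = 6.04e-06) and was not called in Rag1-/- against WT mice (log2 fold change of -0.18 with an SE of 0.09, adjusted p = 0.162). With library size alone the second value was -0.35 and was called (adjusted p = 0.00432). Ces2a, the next highest, had 245, 366 and 395 CPM in Rag1-/- mice, 323, 211 and 186 CPM in co-housed, 446, 437 and 437 CPM in separately housed and 470.2, 472 and 293 CPM in WT mice. Its groups overlapped between Rag1-/- and WT mice, where it was not called (log2 fold change of -0.30 with an SE of 0.26, adjusted p = 0.442). By housing the mice did not overlap, but it was not called (log2 fold change of -0.88 with an SE of 0.26, adjusted p = 0.0197). It was called lower by housing with library size alone (adjusted p = 0.00990), with the 6 Tcra-/- libraries alone (adjusted p = 0.00586), without TCRaCox3155 (adjusted p = 0.00381) and with DESeq2 (adjusted p = 0.00345). Ces2b (chr8:107355544-107362552, plus strand) had 1.79, 1.80 and 1.64 CPM in Rag1-/- mice, 1.09, 1.44 and 0.619 CPM in co-housed, 10.2, 10.04 and 9.67 CPM in separately housed and 3.37, 3.15 and 2.88 CPM in WT mice. Separately housed mice had the highest values by far. Ces2b was lower in co-housed than in separately housed mice (log2 fold change of -3.24 with an SE of 0.21, adjusted p = 9.90e-09) and in Rag1-/- than in WT mice (log2 fold change of -0.85 with an SE of 0.21, adjusted p = 0.00472), the second call being lost without any 1 mouse but WTB6x3167 (adjusted p up to 0.0203).

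In the Ces1 cluster, Ces1g, which hydrolyses lipid esters, had 0.955, 1.28 and 0.768 CPM in Rag1-/- mice, 0.714, 0.343 and 0.891 CPM in co-housed, 6.63, 8.76 and 10.04 CPM in separately housed and 4.27, 4.44 and 2.64 CPM in WT mice. The groups of each comparison did not overlap. The gene was lower in Rag1-/- than in WT mice (log2 fold change of -1.92 with an SE of 0.29, adjusted p = 0.000117) and lower in co-housed than in separately housed mice (log2 fold change of -3.72 with an SE of 0.31, adjusted p = 1.37e-07). Ces1f had 80.4, 93.1 and 88.1 CPM in Rag1-/- mice, 53.7, 57.3 and 67.3 CPM in co-housed, 133, 128 and 126 CPM in separately housed and 88.4, 82.4 and 68.5 CPM in WT mice. Its Rag1-/- and WT values overlapped (log2 fold change of 0.13 with an SE of 0.10, adjusted p = 0.348), and it was lower in co-housed than in separately housed mice (log2 fold change of -1.12 with an SE of 0.10, adjusted p = 1.74e-07). Ces1e had 4.997, 5.02 and 4.84 CPM in Rag1-/- mice, 3.57, 3.96 and 2.80 CPM in co-housed, 8.80, 8.97 and 8.73 CPM in separately housed and 7.65, 8.09 and 6.31 CPM in WT mice. By housing it was lower in co-housed mice (log2 fold change of -1.36 with an SE of 0.15, adjusted p = 1.49e-06). In Rag1-/- mice it was lower than in WT mice (log2 fold change of -0.57 with an SE of 0.14, adjusted p = 0.00589), a call lost without any 1 mouse but WTB6x3167 (adjusted p up to 0.0320). Ces1b was lower in Rag1-/- than in WT mice and was not called by housing (adjusted p = 0.0142), and the first call was lost without 5 of the 6 mice in turn, all but RAG1x3163 (adjusted p up to 0.0337). Ces1d and Ces1c were lower by housing alone (log2 fold changes of -0.63 and -1.22), and the Ces1c groups overlapped. The Ces1c call was lost without TCRaCox3155, TCRaCox3156, TCRaSepxT2 or TCRaSepxT3 and with the 6 Tcra-/- libraries alone (adjusted p up to 0.0154).

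Glucuronosyltransferases attach glucuronic acid, and every Ugt unit tested was lower with co-housing, 7 of 7, while 5 of 7 were lower in Rag1-/- against WT mice. Ugt2a1 passed the filter only through separately housed mice, where it was high, so its lower call adds no support to the first count. Ugt2a3 (chr5:87753997-87766220, minus strand) had 5.22, 5.78 and 4.57 CPM in Rag1-/- mice, 6.43, 6.52 and 3.57 CPM in co-housed, 32.01, 23.4 and 34.5 CPM in separately housed and 39.8, 44.1 and 31.95 CPM in WT mice. Rag1-/- and co-housed mice lay far below the others. Its level was lower in Rag1-/- than in WT mice (log2 fold change of -2.90 with an SE of 0.22, adjusted p = 1.24e-06) and lower in co-housed than in separately housed mice (log2 fold change of -2.45 with an SE of 0.22, adjusted p = 2.33e-06). Ugt2b enzymes act on steroids and other compounds. Ugt2b5 and Ugt2b36 were lower in both stated comparisons, at different levels. The difference between the comparisons, tested below, was called for Ugt2b36 and not for Ugt2b5. Ugt2b5 (chr5:87553972-87569365, minus strand) had 2.35, 3.27 and 3.61 CPM in Rag1-/- mice, 3.66, 2.90 and 2.33 CPM in co-housed, 13.1, 11.4 and 12.03 CPM in separately housed and 9.99, 9.90 and 7.40 CPM in WT mice. Its transcripts were lower in Rag1-/- than in WT mice (log2 fold change of -1.56 with an SE of 0.19, adjusted p = 8.96e-06) and by housing (log2 fold change of -2.05 with an SE of 0.19, adjusted p = 2.64e-07). Ugt2b36 (chr5:87494952-87521580, minus strand) had 6.05, 5.71 and 5.87 CPM in Rag1-/- mice, 5.57, 5.14 and 4.31 CPM in co-housed, 15.3, 17.3 and 15.0 CPM in separately housed and 11.9, 10.8 and 10.4 CPM in WT mice. No group overlapped its partner. This gene was lower in Rag1-/- than in WT mice (log2 fold change of -0.91 with an SE of 0.12, adjusted p = 2.39e-05) and by housing (log2 fold change of -1.67 with an SE of 0.12, adjusted p = 2.54e-08). Ugt2b34, the most abundant Ugt2 gene, had 376, 419 and 442 CPM in Rag1-/- mice, 393, 376 and 273 CPM in co-housed, 655, 689 and 672 CPM in separately housed and 621, 599 and 553 CPM in WT mice. It was lower by housing (log2 fold change of -0.95 with an SE of 0.11, adjusted p = 3.98e-06) and in Rag1-/- than in WT mice (log2 fold change of -0.52 with an SE of 0.11, adjusted p = 0.00184), the second call being lost without RAG1x3163 or WTB6x3159 (adjusted p up to 0.0126). Ugt2b35 was lower by housing (log2 fold change of -0.59 with an SE of 0.13, adjusted p = 0.00186), a call lost without TCRaSepxT2 (adjusted p = 0.0131), and was not called in Rag1-/- against WT mice. Ugt2a1, which shares exons with Ugt2a2, was lower by housing (log2 fold change of -3.35 with an SE of 0.73, adjusted p = 0.00108) and was not called in Rag1-/- against WT mice (log2 fold change of -2.41 with an SE of 0.81, adjusted p = 0.0314).

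The 8 Ugt1a genes on chromosome 1 have their own first exons and share the others, and they could not be told apart by most of their reads. Counts of 6 of them over the 12 libraries ran from 86319 to 86670 reads, while Ugt1a1 had 101403 and Ugt1a7c had 113207. Ugt1a6b, the lowest, had 112, 139.7 and 128 CPM in Rag1-/- mice, 111, 123 and 108 CPM in co-housed, 234, 239.6 and 241 CPM in separately housed and 167, 201 and 179 CPM in WT mice. Its expression was lower in Rag1-/- than in WT mice (log2 fold change of -0.52 with an SE of 0.09, adjusted p = 0.000216) and by housing (log2 fold change of -1.06 with an SE of 0.09, adjusted p = 8.61e-08). Ugt1a10 gave nearly the same values as Ugt1a6b in every mouse (log2 fold change of -0.53 with an SE of 0.09, adjusted p = 0.000210 in Rag1-/- against WT mice, log2 fold change of -1.06 with an SE of 0.09, adjusted p = 8.61e-08 by housing). Ugt1a1, which conjugates bilirubin, had 127, 159 and 147 CPM in Rag1-/- mice, 128, 141 and 121 CPM in co-housed, 279, 287 and 289 CPM in separately housed and 197, 237 and 215 CPM in WT mice. Its levels were lower in Rag1-/- than in WT mice (log2 fold change of -0.58 with an SE of 0.09, adjusted p = 0.000104) and by housing (log2 fold change of -1.13 with an SE of 0.09, adjusted p = 6.06e-08). Reads above the lowest of the 8 genes made up 14.9% of the Ugt1a1 reads and 23.8% of the Ugt1a7c reads. This excess was 15.1, 19.8 and 18.8 CPM in Rag1-/-, 17.3, 17.9 and 12.8 CPM in co-housed, 45.2, 47.3 and 48.5 CPM in separately housed and 29.7, 36.1 and 36.4 CPM in WT mice for Ugt1a1. For Ugt1a7c it was 40.3, 49.98 and 51.4 CPM in Rag1-/-, 38.1, 45.7 and 31.1 CPM in co-housed, 68.3, 75.5 and 66.8 CPM in separately housed and 49.0, 47.6 and 54.8 CPM in WT mice. The Ugt1a1 excess did not overlap within either stated pair, whereas the Ugt1a7c excess overlapped between Rag1-/- and WT mice. With 3 mice against 3, an exact permutation test of a single value cannot go below p = 0.1.

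**Figure D4:**
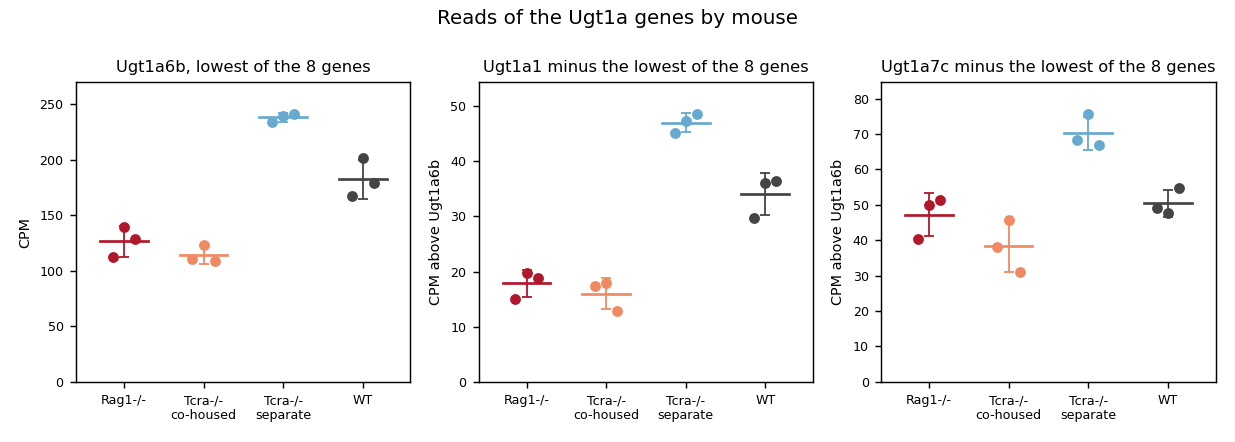
CPM of Ugt1a6b, the lowest of the 8 Ugt1a genes, and CPM above it for Ugt1a1 and Ugt1a7c (vertical axes, from 0) in each mouse, with group mean (line) and SD (bar). Separately housed Tcra-/- mice are highest in all 3 panels, and Rag1-/- and WT mice overlap in the Ugt1a7c panel alone.

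Sulfotransferases attach sulfate to phenols, amines and sterols. Of 18 Sult genes 9 had no read, and of 6 tested 2 were lower in Rag1-/- against WT mice and 4 by housing. Sult1d1 (chr5:87983675-87998031, minus strand) had 174, 191 and 196 CPM in Rag1-/- mice, 185, 173 and 137 CPM in co-housed, 307, 315 and 347 CPM in separately housed and 311, 275 and 289 CPM in WT mice. It was lower in Rag1-/- than in WT mice (log2 fold change of -0.64 with an SE of 0.10, adjusted p = 9.03e-05) and by housing (log2 fold change of -0.97 with an SE of 0.10, adjusted p = 6.94e-07), without overlap. Sult1b1, a neighbour that sulfates thyroid hormones and phenols, had 290.1, 301 and 319 CPM in Rag1-/- mice, 302, 248 and 243 CPM in co-housed, 382, 342 and 387 CPM in separately housed and 390.1, 400.3 and 381 CPM in WT mice. By housing it was lower in co-housed mice (log2 fold change of -0.49 with an SE of 0.08, adjusted p = 0.000146). It was also lower in Rag1-/- than in WT mice (log2 fold change of -0.36 with an SE of 0.08, adjusted p = 0.00315), a call lost without RAG1x3163, RAG1x3164, WTB6x3159 or WTB6x3160 (adjusted p up to 0.0191). Sult1c2 had 2.33, 2.99 and 2.71 CPM in Rag1-/- mice, 1.999, 1.44 and 2.01 CPM in co-housed, 6.67, 5.99 and 6.39 CPM in separately housed and 4.03, 3.63 and 2.35 CPM in WT mice. It was lower by housing (log2 fold change of -1.81 with an SE of 0.21, adjusted p = 2.83e-06), and Rag1-/- and WT mice overlapped (log2 fold change of -0.32 with an SE of 0.20, adjusted p = 0.263). Sult1a1, which sulfates simple phenols, had 3.58, 3.79 and 3.88 CPM in Rag1-/- mice, 3.28, 3.80 and 2.62 CPM in co-housed, 6.10, 6.85 and 6.47 CPM in separately housed and 4.54, 4.24 and 5.39 CPM in WT mice. It was lower by housing (log2 fold change of -0.999 with an SE of 0.16, adjusted p = 6.83e-05) and was not called in Rag1-/- against WT mice (log2 fold change of -0.33 with an SE of 0.16, adjusted p = 0.124). Sult2b1, which sulfates cholesterol, and Sult4a1 were called in neither.

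Glutathione S-transferases attach glutathione to electrophiles. Of 18 tested, 1 was higher and 6 lower in Rag1-/- against WT mice, and 1 was higher and 10 lower by housing, with median log2 fold changes of -0.54 and -0.57. Gsta4 (chr9:78039773-78057156, plus strand), which conjugates the lipid peroxidation product hydroxynonenal, had 6.59, 8.20 and 6.87 CPM in Rag1-/- mice, 7.80, 6.22 and 10.9 CPM in co-housed, 28.9, 26.1 and 29.3 CPM in separately housed and 13.6, 12.5 and 10.7 CPM in WT mice. Separately housed mice were highest. It was lower by housing (log2 fold change of -1.76 with an SE of 0.16, adjusted p = 4.45e-07) and in Rag1-/- than in WT mice (log2 fold change of -0.76 with an SE of 0.16, adjusted p = 0.00222), the second call being lost without RAG1x3163, RAG1x3168 or WTB6x3159 (adjusted p up to 0.0137). Gsta3 had 3.21, 4.15 and 3.03 CPM in Rag1-/- mice, 2.199, 2.26 and 2.40 CPM in co-housed, 7.24, 6.24 and 4.46 CPM in separately housed and 7.60, 5.57 and 6.33 CPM in WT mice. By housing it was lower in co-housed mice (log2 fold change of -1.38 with an SE of 0.20, adjusted p = 2.51e-05). In Rag1-/- mice it was lower than in WT mice (log2 fold change of -0.91 with an SE of 0.19, adjusted p = 0.00154), a call lost without RAG1x3168 or WTB6x3159 (adjusted p up to 0.0112). Gstt1 (chr10:75246558-75261329, minus strand) had 9.92, 10.6 and 10.5 CPM in Rag1-/- mice, 9.97, 10.3 and 9.71 CPM in co-housed, 26.3, 26.2 and 26.0 CPM in separately housed and 20.7, 20.7 and 14.7 CPM in WT mice. The values within groups were close, except for the lowest WT mouse. Expression was lower in Rag1-/- than in WT mice (log2 fold change of -0.85 with an SE of 0.12, adjusted p = 3.34e-05) and by housing (log2 fold change of -1.39 with an SE of 0.12, adjusted p = 1.02e-07). Its neighbour Gstt2 was called in neither stated comparison, with log2 fold changes of 0.16 and 0.14.

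The Gstm cluster of chromosome 3 was mixed. Gstm1 (chr3:107815168-107820891, minus strand) had 14.6, 14.7 and 12.9 CPM in Rag1-/- mice, 13.48, 14.3 and 19.8 CPM in co-housed, 25.6, 27.2 and 24.8 CPM in separately housed and 19.9, 25.5 and 22.6 CPM in WT mice. The gene was lower in Rag1-/- than in WT mice (log2 fold change of -0.69 with an SE of 0.13, adjusted p = 0.000733) and by housing (log2 fold change of -0.71 with an SE of 0.13, adjusted p = 0.000273). Gstm6 had 2.57, 1.66 and 1.98 CPM in Rag1-/- mice, 1.97, 1.65 and 1.56 CPM in co-housed, 4.81, 5.36 and 5.03 CPM in separately housed and 4.16, 3.47 and 3.13 CPM in WT mice. By housing it was lower in co-housed mice (log2 fold change of -1.56 with an SE of 0.19, adjusted p = 5.94e-06). In Rag1-/- mice it was lower than in WT mice (log2 fold change of -0.79 with an SE of 0.19, adjusted p = 0.00415), a call lost with the 6 libraries of these groups alone and without RAG1x3164, RAG1x3168, WTB6x3159 or WTB6x3160 (adjusted p up to 0.0267). Gstm5 (chr3:107698772-107701603, plus strand) had 22.4, 20.6 and 20.3 CPM in Rag1-/- mice, 19.4, 19.3 and 24.4 CPM in co-housed, 16.2, 13.9 and 10.8 CPM in separately housed and 16.4, 15.3 and 16.5 CPM in WT mice. It was higher in co-housed than in separately housed mice (log2 fold change of 0.63 with an SE of 0.13, adjusted p = 0.000722) and was not called in Rag1-/- against WT mice (log2 fold change of 0.40 with an SE of 0.13, adjusted p = 0.0265). Gstm5 overlaps a gene on the other strand, and the labels do not state the strand setting of the counting. Gsto1 (chr19:47929479-47939278, plus strand), the most abundant Gst gene, had 322, 343 and 342 CPM in Rag1-/- mice, 294, 281 and 321 CPM in co-housed, 359, 368 and 370.4 CPM in separately housed and 276, 273 and 269 CPM in WT mice. It was slightly higher in Rag1-/- than in WT mice (log2 fold change of 0.30 with an SE of 0.06, adjusted p = 0.00196) and slightly lower in co-housed than in separately housed mice (log2 fold change of -0.29 with an SE of 0.06, adjusted p = 0.00135). The first value was 0.13 with library size alone (adjusted p = 0.0997) and its call was lost without RAG1x3164 (adjusted p = 0.0114). The second call was lost without TCRaCox3156 (adjusted p = 0.0128) and with the 6 Tcra-/- libraries alone (adjusted p = 0.0104). Gstp1 had 19.5, 24.8 and 19.5 CPM in Rag1-/- mice, 18.9, 19.5 and 20.9 CPM in co-housed, 20.7, 22.0 and 27.0 CPM in separately housed and 19.1, 20.3 and 18.9 CPM in WT mice. Its groups overlapped and it was called in neither (log2 fold change of 0.13 with an SE of 0.11, adjusted p = 0.423 in Rag1-/- against WT mice, log2 fold change of -0.24 with an SE of 0.11, adjusted p = 0.0921 by housing).

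The stated comparisons share no mice, so the difference between their log2 fold changes could be tested. It was called for 18 of the 89 units, against 12% of all genes. Cyp2j6 had the smallest p, with the log2 fold change of Rag1-/- against WT mice minus that of co-housed against separately housed mice at 1.45 (SE 0.11, adjusted p = 1.88e-07). For Cyp2c68, Ces1f and Ces2b the differences were 2.46 (SE 0.30, adjusted p = 6.44e-05), 1.24 (SE 0.14, adjusted p = 7.71e-06) and 2.39 (SE 0.30, adjusted p = 2.44e-05). Of the 18, 17 had the more negative value by housing, and Cyp4f18 had the more positive one, with -1.97 (SE 0.30, adjusted p = 0.000167). Cyp3a11, Ugt2a3, Cyp4v3 and Cyp2d26 had large log2 fold changes in both comparisons and no called difference, which does not show that the sizes are equal.

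**Figure D5:**
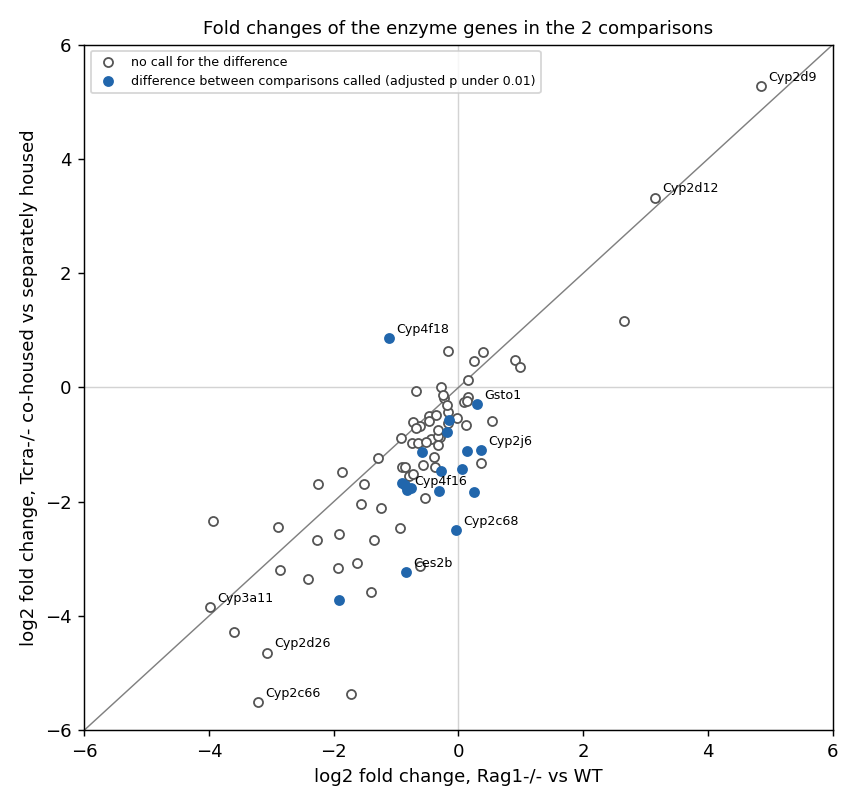
Log2 fold change in Rag1-/- against WT mice (horizontal axis) and in co-housed against separately housed Tcra-/- mice (vertical axis) for 87 of the 89 units, with 2 beyond the limits of 6. Filled points had a called difference between the comparisons, the grey line marks equal values, and most points lie below it.

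Against WT mice, the Tcra-/- groups lay on either side. In separately housed Tcra-/- mice 24 units were higher than in WT mice and 1, Cyp4f18, was lower. Of all genes 13.8% were called there, 6.06% higher and 7.7% lower. In co-housed Tcra-/- mice 2 (Cyp2d12 and Cyp4a29-ps) were higher and 41 lower than in WT mice, and 18.5% of all genes were called, 9.34% higher and 9.19% lower. Cyp2d12 and Cyp4a29-ps passed the filter only through Rag1-/- and co-housed mice, where they were high. Cyp2c67, among the 41 lower, passed only through WT mice, where it was high. The Cyp4f18 call was lost without TCRaSepxT2, TCRaSepxT4, WTB6x3160 or WTB6x3167 (adjusted p up to 0.0240), and Cyp4f18 was not called in co-housed against WT mice (adjusted p = 0.862). These comparisons share the WT mice with each other and with the Rag1-/- comparison. Cyp4f16 was higher in separately housed mice (log2 fold change of 1.06 with an SE of 0.10, adjusted p = 2.70e-06) and lower in co-housed mice (log2 fold change of -0.74 with an SE of 0.10, adjusted p = 4.86e-05), each against WT mice. For Ces2b the values against WT mice were 1.67 in separately housed and -1.57 in co-housed mice, both called. Cyp2j6 was higher in separately housed than in WT mice (log2 fold change of 1.17 with an SE of 0.08, adjusted p = 1.38e-07) and was not called in co-housed mice (log2 fold change of 0.07 with an SE of 0.08, adjusted p = 0.548). The drug-oxidising Cyp3a11 was not called in separately housed against WT mice (log2 fold change of -0.61 with an SE of 0.56, adjusted p = 0.477) and was lower in co-housed mice (log2 fold change of -4.46 with an SE of 0.66, adjusted p = 0.00129), a call lost with the 6 libraries of these groups alone (adjusted p = 0.0187). No Cyp3 gene was called in separately housed against WT mice, and 4 of 5 were lower in co-housed mice. Besides Cyp3a11, the other 3 of these calls were also lost in some settings. The Cyp3a25 call was lost with the 6 libraries of these groups alone and without TCRaCox3156 (adjusted p up to 0.0187). The Cyp3a44 call was lost without TCRaCox3156, TCRaCox3157 or any 1 WT mouse, with those 6 libraries alone and with no filter on low counts (adjusted p up to 0.0372). The Cyp3a59 call was lost with those 6 libraries alone and without TCRaCox3156, TCRaCox3157, WTB6x3160 or WTB6x3167 (adjusted p up to 0.0273). The 24 higher calls included 10 of 26 Cyp2 and 5 of 13 Ces genes. Of these Cyp2 genes, Cyp2c29 and Cyp2d40 passed the filter only through separately housed mice, where they were high. Their higher calls were thus favoured by the filter and add no support to that count. Of all 96 tested members, 32 were called in separately housed against WT mice. Without single mice the count was 18 (TCRaSepxT2), 16 (TCRaSepxT3), 13 (TCRaSepxT4), 20 (WTB6x3159), 25 (WTB6x3160) and 15 (WTB6x3167).

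Partner genes of these enzymes were counted from lists. Among 31 tested electron donors, other oxidases, reductases and hydrolases, 1 was higher and 13 lower in Rag1-/- against WT mice, and 1 was higher and 20 lower by housing. Por, the reductase that feeds electrons to cytochrome P450 enzymes, was lower by housing (log2 fold change of -0.62 with an SE of 0.11, adjusted p = 0.000276) and was not called in Rag1-/- against WT mice (log2 fold change of -0.21 with an SE of 0.11, adjusted p = 0.184). Aadac, an esterase, was lower in both (log2 fold change of -2.03 with an SE of 0.15, adjusted p = 6.84e-08 in Rag1-/- against WT mice, log2 fold change of -3.20 with an SE of 0.15, adjusted p = 4.17e-10 by housing). The aldo-keto reductase Akr1c14 was lower in both (log2 fold change of -2.02 in Rag1-/- against WT mice and of -2.17 by housing). So was the monoamine oxidase Maob (log2 fold change of -1.23 in Rag1-/- against WT mice and of -2.36 by housing). Pon3, a lactonase, was the 1 member of this list that was higher in both (log2 fold change of 0.63 in Rag1-/- against WT mice and of 0.59 by housing). Of 13 genes that supply co-substrates and heme, 3 were higher and 3 lower in Rag1-/- against WT mice, and 3 were higher and 5 lower by housing. Glutathione reductase, Gsr, had 489.7, 513 and 503 CPM in Rag1-/- mice, 431, 441 and 504 CPM in co-housed, 151, 159.7 and 149 CPM in separately housed and 202, 208 and 218 CPM in WT mice. It was higher in Rag1-/- than in WT mice (log2 fold change of 1.26 with an SE of 0.07, adjusted p = 5.11e-09) and higher in co-housed than in separately housed mice (log2 fold change of 1.58 with an SE of 0.07, adjusted p = 2.97e-10). Alas1, the first enzyme of heme synthesis, was higher in both (log2 fold change of 0.59 in Rag1-/- against WT mice and of 0.93 by housing), while Gclm, a subunit of the glutathione-synthesising ligase, was lower in both (log2 fold change of -0.93 in Rag1-/- against WT mice and of -1.57 by housing). Ugdh, which makes UDP-glucuronic acid, was lower by housing (log2 fold change of -0.97 with an SE of 0.07, adjusted p = 4.01e-08) and was not called in Rag1-/- against WT mice (adjusted p = 0.0108). Cbr1, a carbonyl reductase, was lower in both (log2 fold change of -0.75 in Rag1-/- against WT mice and of -1.64 by housing). Of 10 tested other conjugating enzymes 2 were lower in each stated comparison and none was higher, against 20.9% and 38.8% of all genes called. They included Hpgds, a prostaglandin synthase, in Rag1-/- against WT mice (log2 fold change of -0.84) and the microsomal transferase Mgst3 by housing (log2 fold change of -0.42).

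Among 10 efflux transporters, 6 were lower in Rag1-/- against WT mice and none was higher, and by housing 5 were lower and 2 higher. Abcc2, which exports glucuronide and glutathione conjugates, had 32.1, 52.4 and 54.5 CPM in Rag1-/- mice, 42.5, 37.2 and 25.5 CPM in co-housed, 315, 387 and 373 CPM in separately housed and 124, 129 and 127 CPM in WT mice. Its level was lower in Rag1-/- than in WT mice (log2 fold change of -1.45 with an SE of 0.22, adjusted p = 0.000593) and lower in co-housed than in separately housed mice (log2 fold change of -3.36 with an SE of 0.23, adjusted p = 1.18e-06). Abcc6 was lower in both (log2 fold change of -1.55 in Rag1-/- against WT mice and of -3.08 by housing), and so was Abcc5 (-1.61 and -2.15). Abcg2, which exports sulfate conjugates, was called in neither.

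Of 20 sensors and regulators, 1 was higher and 2 lower in Rag1-/- against WT mice, and 1 was higher and 10 lower by housing. The shares of all genes called were 20.9% and 38.8%. Transcript levels of Ahr, the aryl hydrocarbon receptor, were called in neither (log2 fold change of 0.16 with an SE of 0.10, adjusted p = 0.261 in Rag1-/- against WT mice, log2 fold change of -0.10 with an SE of 0.10, adjusted p = 0.409 by housing). The same held for Nr1i2, the pregnane X receptor (log2 fold change of 0.10 with an SE of 0.09, adjusted p = 0.416 and log2 fold change of -0.27 with an SE of 0.09, adjusted p = 0.0195). Nr1i3, the constitutive androstane receptor, had 5.19, 5.0 and 4.74 CPM in Rag1-/- mice, 4.37, 2.88 and 5.199 CPM in co-housed, 11.8, 12.2 and 15.6 CPM in separately housed and 6.84, 8.63 and 4.20 CPM in WT mice. It was lower in co-housed than in separately housed mice (log2 fold change of -1.68 with an SE of 0.24, adjusted p = 4.86e-05) and was not called in Rag1-/- against WT mice (log2 fold change of -0.40 with an SE of 0.24, adjusted p = 0.235). Ppara, a fatty acid receptor, was lower in both (log2 fold change of -0.62 in Rag1-/- against WT mice and of -1.59 by housing), so was Vdr, the vitamin D receptor (-0.41 and -0.89), and Ppard was higher in both (log2 fold change of 0.76 in Rag1-/- against WT mice and of 0.77 by housing). Hnf4g, a nuclear receptor of the gut epithelium, was lower by housing (log2 fold change of -0.999 with an SE of 0.10, adjusted p = 6.10e-07). Nfe2l2, a regulator of antioxidant genes, was lower by housing alone (log2 fold change of -0.51 with an SE of 0.06, adjusted p = 4.76e-06). Transcripts of a regulator do not measure its activity.

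Some markers of cell types were also called in the stated comparisons, and their part in these results was not tested. In separately housed against WT mice, 0 of 6 enterocyte and 0 of 3 distal markers were called, against 13.8% of all genes. The median log2 fold change of the enterocyte markers was -0.003 there. In that comparison 1 of 6 proximal and 3 of 6 crypt proliferation markers were lower, and 0 were higher. Of 6 enterocyte markers, 4 were lower and 1 higher in each stated comparison, and their summed level was 11330 to 12748 CPM in Rag1-/-, 11011 to 13763 CPM in co-housed, 16916 to 19264 CPM in separately housed and 14473 to 15996 CPM in WT mice. Fabp2 was lower in both (log2 fold change of -0.98 in Rag1-/- against WT mice and of -1.54 by housing), and Cdh17 was higher in both (log2 fold change of 0.35 in Rag1-/- against WT mice and of 0.31 by housing). Of 6 markers of the proximal small intestine, 2 were lower and 1 higher in Rag1-/- against WT mice and 3 lower and 1 higher by housing, with sums of 392 to 458 CPM in Rag1-/-, 276 to 336 CPM in co-housed, 798 to 1208 CPM in separately housed and 548 to 704 CPM in WT mice. Lct, the lactase gene, was lower in both (log2 fold change of -4.83 in Rag1-/- against WT mice and of -5.70 by housing), while the medians of this list were -0.08 and -0.22. Of 3 distal markers 1, Cubn, was lower in both (log2 fold change of -2.67 in Rag1-/- against WT mice and of -3.78 by housing). The other 2 were called in neither, and the medians of the list were -0.20 and 0.15. The distal sums were 3043 to 3925 CPM in Rag1-/-, 4155 to 4496 CPM in co-housed, 5410 to 5960 CPM in separately housed and 4106 to 5167 CPM in WT mice. Of 6 crypt proliferation markers 2 were higher in Rag1-/- against WT mice and 4 by housing, with sums of 727 to 773 CPM in Rag1-/-, 819 to 1065 CPM in co-housed, 357 to 722 CPM in separately housed and 501 to 798 CPM in WT mice. The 6 liver markers summed to at most 6.28 CPM in any mouse, and the 6 markers of pancreatic acinar cells to at most 6.91 CPM, with Pnlip and Amy2a5 at 0. Of 5 tested T cell markers, 4 were higher in co-housed than in separately housed Tcra-/- mice, with sums of 6.15 to 8.71 CPM in Rag1-/-, 19.4 to 41.2 CPM in co-housed, 8.43 to 8.75 CPM in separately housed and 52.3 to 81.4 CPM in WT mice. Of 6 B cell markers, 3 were higher and none lower by housing. Of the other marker lists, tested genes called in Rag1-/- against WT mice and by housing were 0 and 0 of 2 for colon, 0 and 1 of 6 for smooth muscle, 1 and 1 of 4 for adipocytes, 1 and 1 of 5 for Paneth cells, 1 and 3 of 4 for goblet cells and 2 and 3 of 3 for tuft cells.

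Mice of 1 group differed in a shared way. RAG1x3163 had the lowest value of its group for 54 of 89 members (60.7%), against 32.9% of all genes tested. WTB6x3167 was lowest among WT mice for 47 members (52.8%), against 35.6% of all genes. Among co-housed mice TCRaCox3155 was highest for 38 members (42.7%), against 30.3% of all genes, including Cyp3a11, Cyp3a25, Cyp2d26, Cyp2b10 and Cyp4v3.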

How the data were processed

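RNA of the terminal ileum of 12 mice was sequenced from stranded mRNA libraries, per the labels. The authors deposited 1 table of whole-number read counts per gene, not normalized. Per the submitters' processing notes the tools included bcl2fastq, TopHat2 2.0.11, Bowtie2 2.2.2.0, featureCounts of Subread 1.4.5-p1 and DESeq2 1.12.3, with the mm9 build. No label states the annotation release, the strand setting or how multi-mapped reads were handled, so reads of near-identical genes, of genes that share exons and of overlapping genes are uncertain.

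Members were matched by symbol (Cyp1 to Cyp4, Gsta, Gstk, Gstm, Gsto, Gstp, Gstt, Ugt1 to Ugt3, Sult, Ces). The members and lists were chosen with earlier results of these data known. Genes were filtered with filterByExpr over the 4 groups, scaled with TMM factors (0.926 to 1.07) and fitted over all 12 libraries with edgeR 4.0.16 in R 4.3.3 (robust quasi-likelihood fit, group as the only term, 8 residual degrees of freedom), checked on simulated data. P-values were adjusted over all 15866 tested genes and called under 0.01, the false discovery rate of the study's design text. The SE is the size of the log2 fold change divided by the square root of F. CPM use TMM-scaled library sizes, and CPM per kilobase divide by the gene length in the deposited table. Where a group had no read, a bound was computed against a floor of 3 counts. The test of the difference between the stated comparisons and counting the Ugt1a genes once were chosen after seeing the data. Values of every mouse are given, per family, for the 3 called members with the smallest adjusted p in each stated comparison and the 2 with the highest level per kilobase. Values of every mouse for Cyp2b10, Cyp4f18, Cyp4a29-ps and Gstm5 were added after their values were seen. Of the other lists, called genes with the 3 smallest adjusted p, and sensors were named, while Por, Pon3, Abcg2 and the other markers were picked after their values were seen. Alternatives were library size alone, median-ratio (RLE) factors, a CPM of at least 1 in at least 3 libraries, no filter, DESeq2 1.42.0, the 6 libraries of a comparison alone and leaving out each mouse.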

Additional observations from a re-analysis of the deposited data

How the results depend on the processing

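Of 96 tested members, 45 were called in Rag1-/- against WT mice, with 32 to 54 over the alternatives, and 73 by housing, with 62 to 77. In co-housed Tcra-/- against WT mice 50 were called, with 36 to 53. All these counts stayed within 1.5 times of the count reported. In separately housed Tcra-/- against WT mice 32 were called, and leaving out 1 mouse gave 13 to 25. Without 1 mouse the ranges were 32 to 45 for Rag1-/- against WT mice, 66 to 71 by housing and 38 to 48 for co-housed against WT mice. With the Ugt1a genes counted once, 22 of 38 calls held under every alternative in Rag1-/- against WT mice, 55 of 66 by housing, 26 of 43 in co-housed against WT mice and 12 of 25 in separately housed against WT mice. No paired analysis was possible because the labels state neither cages nor pairs of mice.

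Some values that were not called changed sign, and the cause was not tested. With library size alone the log2 fold changes were -0.038 for Gstp1 and -0.039 for Ces1f in Rag1-/- against WT mice, -0.092 for Cyp1b1 by housing, and -0.053 for Cyp2j6 and -0.10 for Gstp1 in co-housed against WT mice. Leaving out each mouse in turn gave -0.25 to 0.15 for Cyp2c68 in Rag1-/- against WT mice and -0.13 to 0.20 for Cyp1b1 by housing. In separately housed against WT mice it gave -0.21 to 0.092 for Cyp1b1, -0.071 to 0.027 for Cyp3a13, -0.28 to 0.053 for Gsta3 and -0.100 to 0.20 for Ces2a. In co-housed against WT mice it gave -0.17 to 0.10 for Cyp1b1, -0.0020 to 0.14 for Cyp2j6 and -0.018 to 0.055 for Gstp1. Totals of at least 37061276 counts limit the members with few reads, such as Cyp2d9.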
